A study of Mus musculus with 4 samples.

Results

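Expression of 10 genes of bile acid synthesis and its control was followed in mouse liver over adult life. The set was given as a list of genes, with the enzymes Cyp7a1, Cyp8b1, Cyp27a1, Cyp7b1, Hsd3b7, Akr1d1, Slc27a5 and Baat and the nuclear receptors Nr1h4 and Nr0b2. Each gene was found through the probe sets annotated to its symbol and no other. All 10 were present among the 18193 genes on the array, with 16 probe sets, of which 14 lay above the level filter described below. Livers were taken at 4, 8, 13 and 21 months of age from males of C57BL/6J, an inbred strain, and all groups ate a low-fat diet ad libitum. Every age is a pool of liver RNA from 6 animals, per the series description. Each pool was hybridised to 1 oligonucleotide array, so there is 1 array per age.

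Because each age has a single array of pooled RNA, no difference between a pair of ages was tested, no p-value is given, and the spread between mice is unknown. Differences are sizes measured between pools, on the log2 scale, where 1 is a 2-fold difference, and the number of arrays limits their precision. Where a gene had several probe sets, the one with the highest mean represents it. The level filter was a mean of at least 3.74, the median over probe sets, and 11587 genes passed it, with all 10 bile acid genes among them. A gene was counted as different when 2 ages lay at least 1.5-fold apart, and the share of all kept genes past the same fold stands beside each count of the 10 genes. As a measure of disagreement between probe sets on the same arrays, 1136 genes had 2 probe sets with means of at least 7. Between those sets the 13 vs 8 months difference disagreed by a median of 0.08 and a 95th percentile of 0.26. An error of a whole array that reaches both probe sets cancels in this measure, so the error between arrays is unknown. The tissue label was checked with hepatocyte markers: of 10 listed, 8 had a probe set, all 8 were kept, and their mean log2 level was 12.62, 12.56, 12.62 and 12.68 at 4, 8, 13 and 21 months.

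Bile acids are made from cholesterol in hepatocytes and serve to solubilise dietary fat and to remove cholesterol from the body. The classic route opens with Cyp7a1 in the endoplasmic reticulum, and the alternative route opens with Cyp27a1 in mitochondria followed by Cyp7b1. Hsd3b7 and Akr1d1 then modify the sterol rings, Cyp8b1 adds the hydroxyl group that sets the share of cholic acid, and Slc27a5 and Baat join bile acids to coenzyme A and then to taurine or glycine. Bile acids feed back on this route through the receptor FXR, encoded by Nr1h4, which induces Nr0b2. The Nr0b2 product, SHP, has no DNA-binding domain of its own and lowers Cyp7a1 and Cyp8b1 transcription by binding other nuclear receptors, among them the products of Nr5a2 and Hnf4a.

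Upstream sequences of 6 of the 10 genes matched a RefSeq promoter table of the GRCm38.p6 assembly by symbol. The 3 of these whose expression had the widest range over the arrays, Nr0b2, Cyp8b1 and Akr1d1, are printed as the 250 bases before the annotated start, 5′ to 3′ on the strand of the gene. Nr0b2 lies on the plus strand at chr4:133553126-133553375, Cyp8b1 on the minus strand at chr9:121916306-121916555 and Akr1d1 on the plus strand at chr6:37529923-37530172. Capitals mark matches to the motifs listed after the sequences.
Nr0b2: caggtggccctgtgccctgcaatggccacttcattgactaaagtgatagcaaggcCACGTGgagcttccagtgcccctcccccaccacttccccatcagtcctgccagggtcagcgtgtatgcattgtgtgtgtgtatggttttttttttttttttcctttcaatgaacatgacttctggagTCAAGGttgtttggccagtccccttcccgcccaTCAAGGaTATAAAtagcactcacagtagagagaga
Cyp8b1: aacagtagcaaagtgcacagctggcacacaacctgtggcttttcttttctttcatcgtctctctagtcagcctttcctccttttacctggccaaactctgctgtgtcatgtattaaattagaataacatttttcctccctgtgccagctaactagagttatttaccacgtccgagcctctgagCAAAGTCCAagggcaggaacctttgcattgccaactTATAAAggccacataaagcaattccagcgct
Akr1d1: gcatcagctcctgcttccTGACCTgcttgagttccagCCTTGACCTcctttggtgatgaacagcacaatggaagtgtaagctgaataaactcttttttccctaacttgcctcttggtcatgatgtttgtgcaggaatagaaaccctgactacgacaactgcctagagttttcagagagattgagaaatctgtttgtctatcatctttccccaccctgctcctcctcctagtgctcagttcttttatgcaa
The motifs were searched on both strands, and they were chosen with these sequences in view. TATAAA, the TATA box, lay 28 to 23 bases before the start of Nr0b2 and 31 to 26 bases before that of Cyp8b1. Anywhere in the 250 bases and on either strand, 12.4% of the 32851 promoter windows of the table hold it. In a short stretch just before the start, on the strand of the gene, 2.107% of plus-strand and 2.167% of minus-strand windows hold it. TCAAGG, the core bound by the Nr5a2 product, occurred in Nr0b2 at 68 to 63 and at 35 to 30 bases before the start, and 12.5% of windows hold it. CACGTG, an E-box of the kind bound by the clock proteins, lay 195 to 190 bases before the Nr0b2 start and is held by 6.02% of windows. In Cyp8b1 the element CAAAGTCCA, of a form bound by the Hnf4a product, lay 67 to 59 bases before the start, against 0.384% of all windows. Akr1d1 held the nuclear receptor hexamer AGGTCA on the opposite strand at 232 to 227 and at 210 to 205 bases before the start, the second overlapping a TCAAGG match at 213 to 208, and 14.0% of windows hold AGGTCA. No match to the longer Nr5a2 motif CAAGGTCA or to the D-box TTATGTAA was present in the 6 windows, and 1.33% and 0.819% of all windows hold them. A match is a run of letters and was not tested as a binding site.

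Over the 4 ages, 2 of the 10 genes, Cyp7a1 and Nr0b2, spanned more than 1.5-fold, and the other 8 spanned less. Of all kept genes 5.42% had a range that wide. The median range of the 10 was 0.30, beside 0.22 for all kept genes and 0.18 for the 3920 kept genes with a mean of at least 7, a level that all 10 exceeded. For 5 of the 10 genes the range stayed under 0.3. None was higher at every step over 4, 8, 13 and 21 months and none lower at every step, orders that 4.38% and 3.14% of kept genes had. Of the 10, 4 had their lowest value at 8 months, 3 at 21 months, 2 at 13 months and 1 at 4 months. The hepatocyte markers Alb, Apoa1, Ambp, Fgb, Cps1 and Arg1 were also lowest at 8 months, while Ttr and Apoh were not. The shares of all kept genes by lowest age were not computed, so these counts are not a result about the 10 genes.

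**Figure D1:**
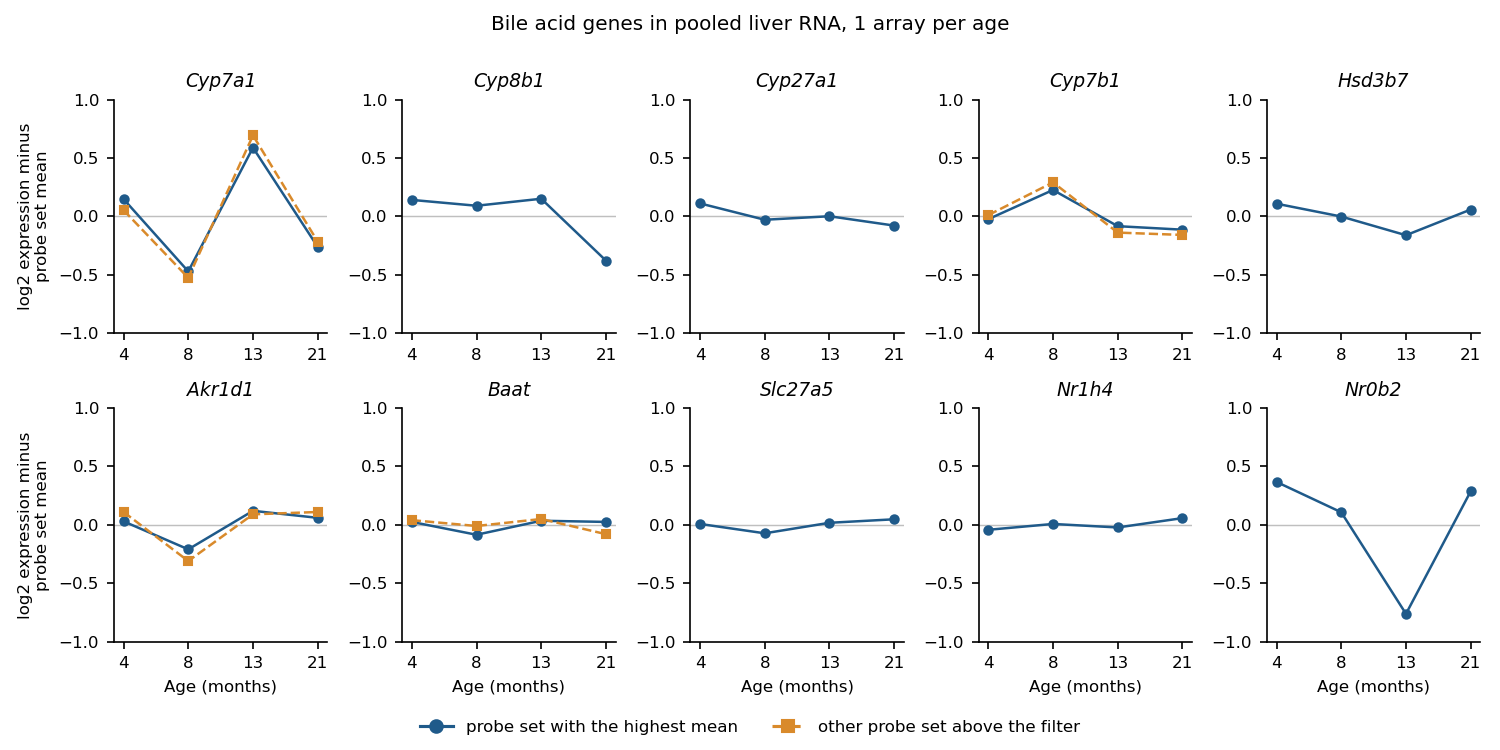
Each panel plots 1 gene, with age in months (evenly spaced) on the x axis and log2 expression minus the probe set's own mean over the 4 arrays on the y axis. Solid blue lines are the probe set with the highest mean and dashed orange lines any other probe set above the filter; points are single arrays of pooled RNA, without error bars. Cyp7a1 peaks at 13 months at 9.96 where Nr0b2 has its lowest value, 7.80, and Cyp8b1 is lowest at 21 months.

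Cyp7a1, the rate-limiting enzyme of the classic route, was at 9.52, 8.90, 9.96 and 9.11 at 4, 8, 13 and 21 months. The 13-month pool was the highest and the 8-month pool the lowest, with the 21-month pool nearest to the 8-month pool. Expression was 2.08-fold higher at 13 than at 8 months, a log2 difference of 1.06 that 0.164% of kept genes equalled or exceeded in size. Against 13 months it was 1.80-fold lower at 21 months, and against 4 months it was 1.54-fold lower at 8 months and 1.33-fold lower at 21 months. A separate Cyp7a1 probe set on the same arrays read 8.07, 7.49, 8.71 and 7.80 and put the ages in the same order. The pair of probe sets disagreed by 0.16 on the 13 vs 8 months difference and by 0.20 at most, at 13 vs 4 months. That disagreement moves 2 comparisons across the 1.5-fold line: at 8 vs 4 months the log2 differences were -0.62 and -0.58, and at 13 vs 4 months 0.44 and 0.64. The gap between the 2 lowest ages, 21 and 8 months, was 0.21 by one probe set and 0.31 by the other.

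Cyp27a1, the mitochondrial enzyme that opens the alternative route, was at 11.09, 10.95, 10.98 and 10.90. Its range of 0.19 was matched or exceeded by 59.9% of kept genes. A further probe set annotated to Cyp27a1 read 1.83 to 2.02, far below the filter, and was not used. Cyp7b1, which acts after Cyp27a1 and is expressed more in male than in female mouse liver, was at 11.17, 11.42, 11.11 and 11.08. Its 8-month pool stood above the other 3, which lay within a narrow band. The log2 difference at 8 vs 4 months was 0.25, at 13 vs 8 months -0.31 and at 21 vs 8 months -0.34. Another probe set of Cyp7b1 gave 10.34, 10.62, 10.19 and 10.17, with the same high pool and the same order of ages. Cyp7b1 thus had its highest value in the pool in which Cyp7a1 had its lowest. Beside it, 9 male-predominant liver genes from a separate list had a median difference of 0.05 at 8 vs 4 months, -0.34 at 13 vs 8 months and -0.56 at 21 vs 4 months. At 21 vs 4 months Cyp7b1 was at -0.09, while in that list Ugt2b38, a glucuronosyltransferase, was at -1.41, Slco1a1, a transporter, and Hsd3b5, a steroid-metabolising enzyme, at -0.79 each and the elongase Elovl3 at -0.69.

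Cyp8b1, whose activity sets the proportion of cholic acid, was at 10.90, 10.85, 10.91 and 10.38. The 3 younger pools lay within 0.06 of each other and the 21-month pool stood below all of them. Its log2 difference was -0.52 at 21 vs 4 months, -0.53 at 21 vs 13 and -0.47 at 21 vs 8 months, or 1.43-fold, 1.44-fold and 1.39-fold lower at 21 months. Each of these lay under the 1.5-fold line. Of kept genes 3.20% differed as much or more at 21 vs 4 months, in either direction. The array carried 1 probe set for Cyp8b1, so no second reading was available.

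Hsd3b7, which oxidises the sterol ring after hydroxylation, was at 11.22, 11.11, 10.95 and 11.17. It was lowest at 13 months, with log2 differences of -0.27 at 13 vs 4 months and 0.22 at 21 vs 13 months. Akr1d1, the reductase that follows it, was at 8.64, 8.40, 8.73 and 8.67, and a second probe set was at 7.87, 7.45, 7.85 and 7.87. In both sets the 8-month pool was the low one and the other 3 pools were close together. Akr1d1 was higher at 13 than at 8 months by 0.33 in its main probe set and by 0.40 in the other. Among the 10 genes it was, after Cyp7a1, the one with the largest positive difference in that comparison.

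The enzymes that activate and conjugate bile acids differed little. Slc27a5, the bile acid coenzyme A ligase, was at 11.65, 11.57, 11.66 and 11.69. Baat, the transferase that adds taurine or glycine, was at 9.30, 9.19, 9.31 and 9.30 in its main probe set and at 7.37, 7.32, 7.38 and 7.25 in its other one. Ranges of 0.12 for both genes were matched or exceeded by 82.6% of kept genes. For Baat the sign of the 21 vs 8 months difference was not the same in its 2 probe sets, 0.11 and -0.07. Of the 24 differences of the 4 genes with 2 probe sets above the filter, 3 had opposite signs in the 2 sets, all for Akr1d1 or Baat, and the largest disagreement was 0.20.

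Of the regulators, Nr1h4, the receptor that senses bile acids, was at 8.70, 8.75, 8.72 and 8.80 and had the narrowest range of the 10 genes, 0.10. Nr0b2, which Nr1h4 induces, was at 8.93, 8.67, 7.80 and 8.85. The 13-month pool alone was low, and the other 3 pools lay within 0.26 of each other. Expression of Nr0b2 was 2.19-fold lower at 13 than at 4 months and 1.83-fold lower at 13 than at 8 months, and 2.07-fold higher at 21 than at 13 months. In size, 0.147% of kept genes differed as much at 13 vs 4 months, and 0.319% at 13 vs 8 months. The array has 1 probe set for Nr0b2, so its low value rests on 1 probe set on 1 array. At 13 months, then, the pool with the lowest Nr0b2 had the highest Cyp7a1, while Cyp8b1, at 10.91, was within 0.06 of its values at 4 and 8 months. At 8 months Cyp7a1 was at its lowest while Nr0b2, at 8.67, was not at its highest. No correlation over the 4 pools is given, and a link between Nr0b2 and Cyp7a1 or Cyp8b1 was not tested.

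**Figure D2:**
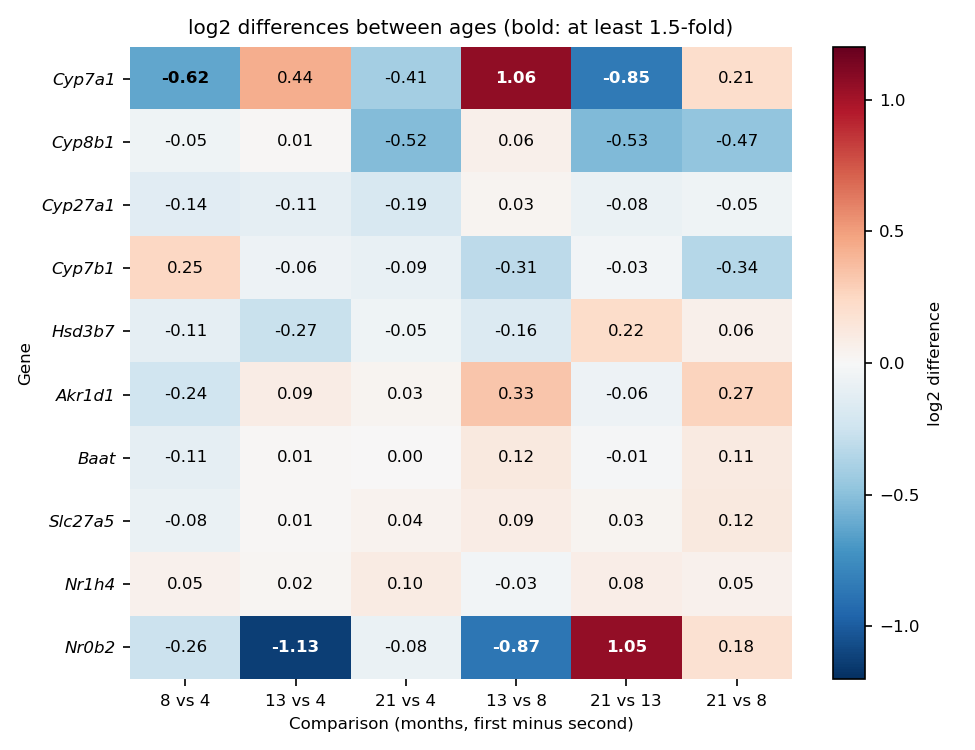
Each cell gives the log2 difference of 1 gene (rows) for 1 comparison of ages (columns, the age named first minus the second), with blue for lower and red for higher. Bold values are at least 1.5-fold, and all belong to Cyp7a1 or Nr0b2; the lowest is -1.13 for Nr0b2 at 13 vs 4 months and the highest 1.06 for Cyp7a1 at 13 vs 8 months.

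Counted by comparison, at 8 vs 4 months 0 of the 10 genes were at least 1.5-fold higher, beside 0.501% of kept genes, and 1 was lower, Cyp7a1, beside 0.354%. Of the 10, 8 were below their 4-month value, with a median difference of -0.11 against 0.00 for all kept genes. Cyp7b1 and Nr1h4 were the 2 above it. Of the 8 hepatocyte markers 7 were lower at 8 than at 4 months too, with a median of -0.025. The share of all kept genes below their 4-month value was not computed, so the count of 8 is not a result about the 10 genes. At 13 vs 8 months Cyp7a1 was the 1 gene at least 1.5-fold higher, beside 0.716% of kept genes, and Nr0b2 the 1 gene lower, beside 0.362%. The median of the 10 was 0.045 there, against 0.01 for all kept genes. At 21 vs 13 months the same pair passed with the signs exchanged, Nr0b2 higher by 1.05, beside 1.47% of kept genes, and Cyp7a1 at -0.85, beside 0.457%. Of the 10 genes 4 were higher and 6 lower there, with a median of -0.02 against 0.01 for all kept genes. These comparisons share the 13-month array, which enters 13 vs 8 with 1 sign and 21 vs 13 with the other, so a deviation of that pool gives opposite differences in both.

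Set against 4 months, the 13-month pool had 0 genes higher, beside 0.837%, and 1 gene lower, Nr0b2, beside 0.457%, with a median of 0.01 for the 10 genes and for all kept genes alike. Over the whole span, 21 vs 4 months, 0 genes passed 1.5-fold in either direction, beside 2.11% of kept genes higher and 0.423% lower, and 21 vs 8 months likewise had 0 in either direction, beside 2.66% and 0.699%. At 21 vs 8 months 7 of the 10 were higher, by at most 0.27, and 3 lower, with a median of 0.085. At 21 vs 4 months 6 of the 10 were lower, 3 higher and Baat at 0.00, with a median of -0.065 against 0.01 for all kept genes. The lower values were led by Cyp8b1 at -0.52, Cyp7a1 at -0.41 and Cyp27a1 at -0.19. The 3 higher values were small, with Nr1h4 at 0.10, Slc27a5 at 0.04 and Akr1d1 at 0.03.

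Smaller differences came into view with the line set at a 25% difference. Cyp7a1 was then higher at 13 vs 4 months, as were 3.98% of kept genes, and Cyp7a1 and Akr1d1 were higher at 13 vs 8 months, as were 3.92%. Cyp7a1 and Cyp8b1 were lower at 21 months against both 13 months, beside 3.44% of kept genes, and 4 months, beside 3.17%. Cyp8b1 and Cyp7b1 were lower at 21 vs 8 months, beside 4.73%. With the line at 2-fold, Nr0b2 was lower at 13 vs 4 months, beside 0.0518% of kept genes, Cyp7a1 higher at 13 vs 8 months, beside 0.129%, and Nr0b2 higher at 21 vs 13 months, beside 0.311%. At that line 0 of the 10 genes were lower at 8 vs 4, 13 vs 8 or 21 vs 13 months, beside 0.0259%, 0.0777% and 0.0518% of kept genes.

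**Figure D3:**
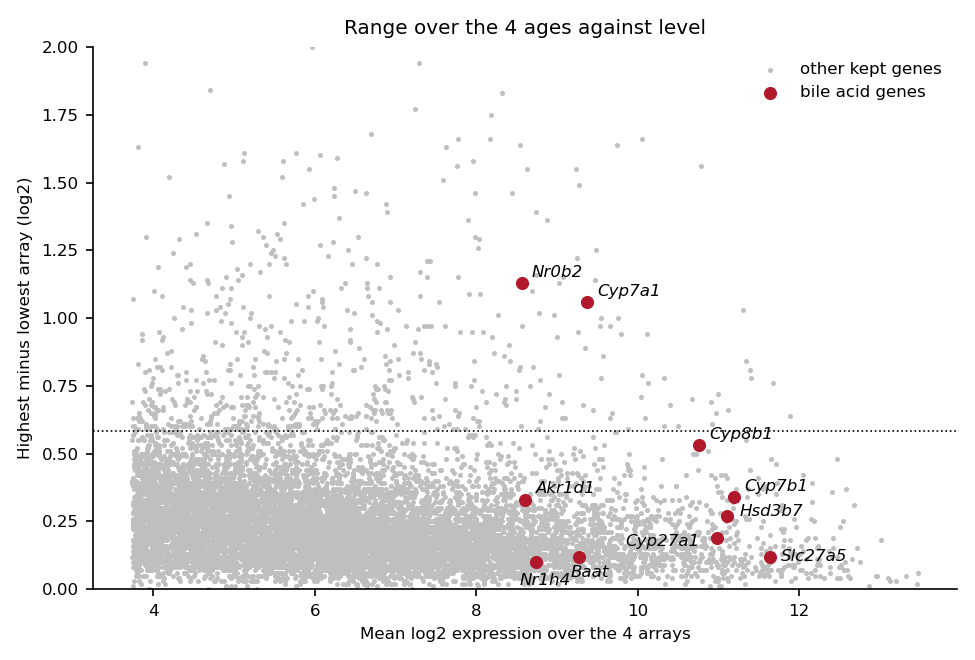
Each point is a kept gene, with its mean log2 expression over the 4 arrays on the x axis and the highest minus the lowest array (log2) on the y axis; red points are the 10 bile acid genes, and the dotted line marks 1.5-fold. The y axis ends at 2, above which 13 other genes lie. Nr0b2 at 1.13 and Cyp7a1 at 1.06 lie above the line, Cyp8b1 at 0.53 just under it, and the other 7 at 0.34 or less.

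Other enzymes of the route were taken from a list of 13, of which 12 were kept and Ch25h lay below the filter. Of the 12, 0 were at least 1.5-fold higher or lower in the comparisons of 8, 13 and 21 with 4 months, where 0.354% to 2.11% of all kept genes passed in each direction, and their median was -0.105 at 21 vs 4 months, with 8 lower and 3 higher. The 4 largest differences at 21 vs 4 months were all lower: Cyp39a1, an oxysterol hydroxylase, and Abcd3, a peroxisomal importer, at -0.20 each, the thioesterase Acot8 at -0.19 and the ligase Slc27a2 at -0.18. Acot8 had the widest swing of the list, at 7.37, 7.81, 7.50 and 7.18 at the 4 ages, and was 1.55-fold lower at 21 than at 8 months. Cyp2c70, which makes the muricholic acids of mice, was at 11.57, 11.36, 11.31 and 11.72, higher by 0.41 at 21 than at 13 months, and Cyp2a12, which hydroxylates bile acids in mouse liver, at 11.11, 11.12, 11.14 and 11.12.

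Other regulators spanned less than Nr0b2 over the ages. Of 18 listed, 15 had a single-symbol probe set and 14 were kept, and 0 of the 14 were at least 1.5-fold apart in the comparisons with 4 months, beside the same shares of all kept genes. Nr5a2, which activates Cyp7a1, Cyp8b1 and Nr0b2, was at 7.91, 7.59, 7.77 and 7.81. It was lowest at 8 months like Cyp7a1, but highest at 4 months, where Cyp7a1 was highest at 13. Nr1h3, Rxra and Ppargc1a were lowest at 8 months too, and the other kept regulators at other ages. Ppargc1a, a coactivator of Cyp7a1, was at 6.08, 5.50, 5.93 and 5.83, and its log2 difference of -0.58 at 8 vs 4 months lay just under the line. Fgfr4, the receptor for the intestinal hormone FGF15, was at 6.77, 6.83, 7.11 and 7.01, and its coreceptor Klb at 7.53, 7.65, 7.64 and 7.43. Hnf4a was at 10.92, 10.88, 10.77 and 10.78. At 13 vs 8 months 10 of the 14 were higher, with a median of 0.14.

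Of 13 bile acid and sterol transporters 12 were kept. At 21 vs 4 months Slco1a1 was the 1 gene at least 1.5-fold lower, at -0.79, beside 0.423% of all kept genes. At 8 vs 4 months Slco1a4 was the 1 gene past that line, at -0.69, beside 0.354% lower. Both are sinusoidal uptake carriers. The exporter Abcc4 was the 1 gene at least 1.5-fold higher at 13 vs 4 months, at 0.75, beside 0.837%. Slc10a1 and Slco1b2 of the same list had a range of 0.09 each. Abcb11, the canalicular bile salt pump and another gene that Nr1h4 induces, was at 9.86, 9.70, 9.60 and 9.75, lowest at 13 months by a small margin. Of the other kept transporters, Abcc2, Slc51b, Abcg5 and Abcg8 were lowest at that age too, and the rest were lowest at other ages. Whether genes that Nr1h4 induces share a course was not tested.

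**Figure D4:**
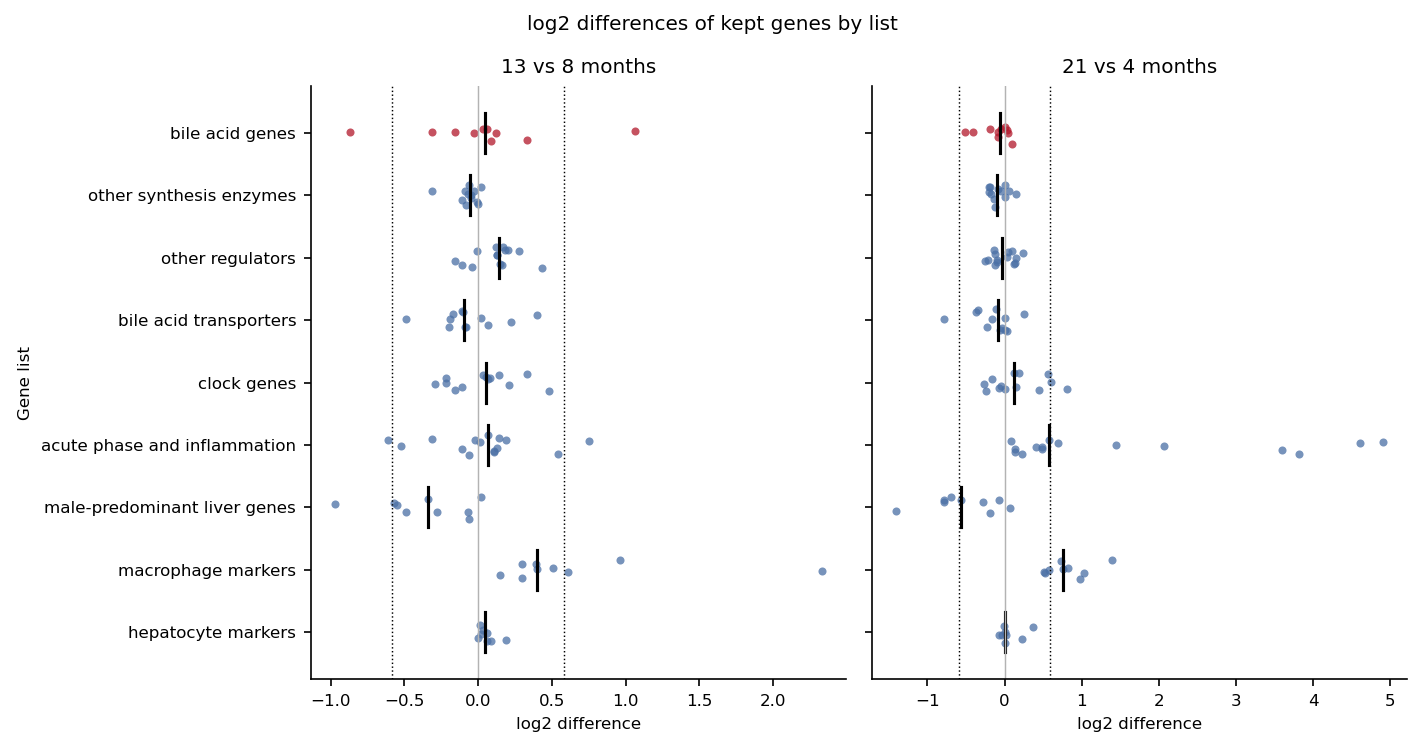
Points are kept genes of each list and black bars the list medians, on an x axis of log2 difference at 13 vs 8 months (left) and 21 vs 4 months (right); dotted lines mark 1.5-fold. At 13 vs 8 months Cyp7a1 at 1.06 and Nr0b2 at -0.87 are the bile acid genes beyond the lines, and at 21 vs 4 months no bile acid gene is.

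Several gene groups outside the pathway moved in the same comparisons, and their part in the bile acid results was not tested. The synthesis of bile acids follows the time of day, and the labels do not give the hour at which livers were collected, so hour and age cannot be told apart. Of 15 clock genes 13 were kept. Dbp, a clock output factor known in rat to activate Cyp7a1, was at 7.98, 9.07, 9.14 and 8.79, Per3 at 5.08, 5.79, 5.93 and 5.68, Ciart at 4.98, 5.93, 5.82 and 5.54, and Arntl at 6.09, 5.66, 5.44 and 5.85. The clock list had a median of 0.17 at 8 vs 4 months, 0.05 at 13 vs 8, -0.25 at 21 vs 13 and 0.12 at 21 vs 4 months. Its genes differed in opposite directions, so the median does not measure the size of a clock difference. At 13 vs 4 months 10 of the 13 were higher, led by Dbp at 1.16. The 3 lower ones were Arntl at -0.65, Nfil3 at -0.56 and Clock at -0.41. Per1 was at 6.42, 6.33, 6.66 and 6.37, lowest at 8 and highest at 13 months, as Cyp7a1 was. No other kept clock gene had its lowest and highest values at those ages. At 8 vs 4 months Per1 was at -0.09, against -0.62 for Cyp7a1. Per2 was at 5.24, 5.36, 5.84 and 5.24, highest at 13 months, and its -0.60 at 21 vs 13 months made it the 1 clock gene at least 1.5-fold lower there, beside 0.457% of all kept genes. More clock genes passed that line against 4 months. At 8 months 3 of the 13 were higher, beside 0.501% of kept genes. At 13 months 4 were higher, beside 0.837%, and 1 lower, beside 0.457%, and at 21 months 2 were higher, beside 2.11%.

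At 21 months, the age at which Cyp8b1 was low, 15 of 15 kept acute phase and inflammation genes were higher than at 4 months, by a median of 0.57, and 7 of the 15 were at least 1.5-fold higher, beside 2.11% of all kept genes. The siderophore-binding protein gene Lcn2 was higher by 4.90, the serum amyloid genes Saa2 and Saa1 by 4.60 and 3.60 and the orosomucoid gene Orm2 by 3.82. The mean log2 level of the list was 7.70, 7.71, 7.73 and 9.18 over the ages, and Il6 lay below the filter in every pool. Macrophage markers were higher at 21 than at 4 months in 9 of 9 cases, 6 of them at least 1.5-fold, beside 2.11% of all kept genes, and lower at 8 than at 4 months in 9 of 9, 1 of them at least 1.5-fold, beside 0.354%, with mean log2 levels of 7.37, 6.89, 7.55 and 8.19. The scavenger receptor gene Marco was at 5.88, 4.42, 6.75 and 6.46, lowest at 8 and highest at 13 months, as Cyp7a1 was. The other 8 macrophage markers were highest at 21 months, and at 21 vs 13 months 8 of the 9 were higher, with a median of 0.79, and Marco was at -0.29. In bulk liver, fewer cells of a type and less RNA per cell cannot be told apart. Hepatocyte markers had medians of -0.025 at 8 vs 4 months, 0.045 at 13 vs 8 months and 0.01 at 21 vs 4 months.

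Of the neutrophil markers 4 of 6 with a probe set were kept, with a mean log2 level over the 6 of 4.33, 4.30, 4.48 and 4.83. At 21 vs 4 months S100a9 was at 1.45, S100a8 at 1.35, Ngp at 0.19 and Elane at -0.11, and Camp and Mpo were below the filter. Bile duct markers were near the floor, with Krt7, Krt19 and Cftr below the filter and a mean over 5 genes of 3.19, 3.61, 3.15 and 3.19. Krt19 reached 4.99 at 8 months, the pool in which Cyp7a1 and Akr1d1 were low, against 3.48 at 4 months. The other 4 duct markers differed less at 8 vs 4 months, with Krt7 at 0.29, Cftr at 0.14 and the 2 kept ones, Sox9 and Epcam, at 0.09 each. Ileum markers Fabp6, Fgf15, Vil1 and Slc10a2 were below the filter. The 2 kept ones were Cdx2, at 3.69 to 3.92, and Fabp2, at 8.40, 8.69, 8.24 and 8.58, and the mean over the 6 genes was 4.09, 4.17, 4.03 and 4.18.

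Genes with the most similar course were sought for Cyp7a1, Cyp8b1 and Nr0b2 as the 5 kept genes with the smallest root mean square distance between log2 profiles, each centred on its own mean over the 4 arrays. Closest to Cyp7a1 was Hhex, a homeobox factor of liver development, at 8.77, 8.26, 8.97 and 8.15 with a distance of 0.146, ahead of Cd163, Icos, Ccn2 and Zfp53 at 0.162 to 0.204. For Cyp8b1 the distances were 0.0206 to 0.0367, and the 5 genes were Pi4kb, Nat8f5, Foxa1, Hoxc6 and Abhd1. Distances were not scaled to the range, 0.53 for Cyp8b1, 1.06 for Cyp7a1 and 1.13 for Nr0b2, so a smaller one is not a closer likeness. Some of the genes lay near the level filter, such as Pi4kb, at 3.57 at 21 months, and Zfp53, at 3.69 at 8 months. Foxa1, a forkhead factor of hepatocytes, was at 7.88, 7.89, 7.88 and 7.37. Closest to Nr0b2 was the transcriptional repressor gene Bcl6, at 7.0, 7.04, 5.93 and 7.13 with a distance of 0.119. Zbtb16, Ppp1r3c, Nktr and Erdr1 followed at 0.140 to 0.197, and Ppp1r3c, which targets a phosphatase to glycogen, was at 8.33, 7.82, 6.77 and 8.12. Each likeness rests on 4 pools, and among 11587 genes some profiles lie close for any course.

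**Figure D5:**
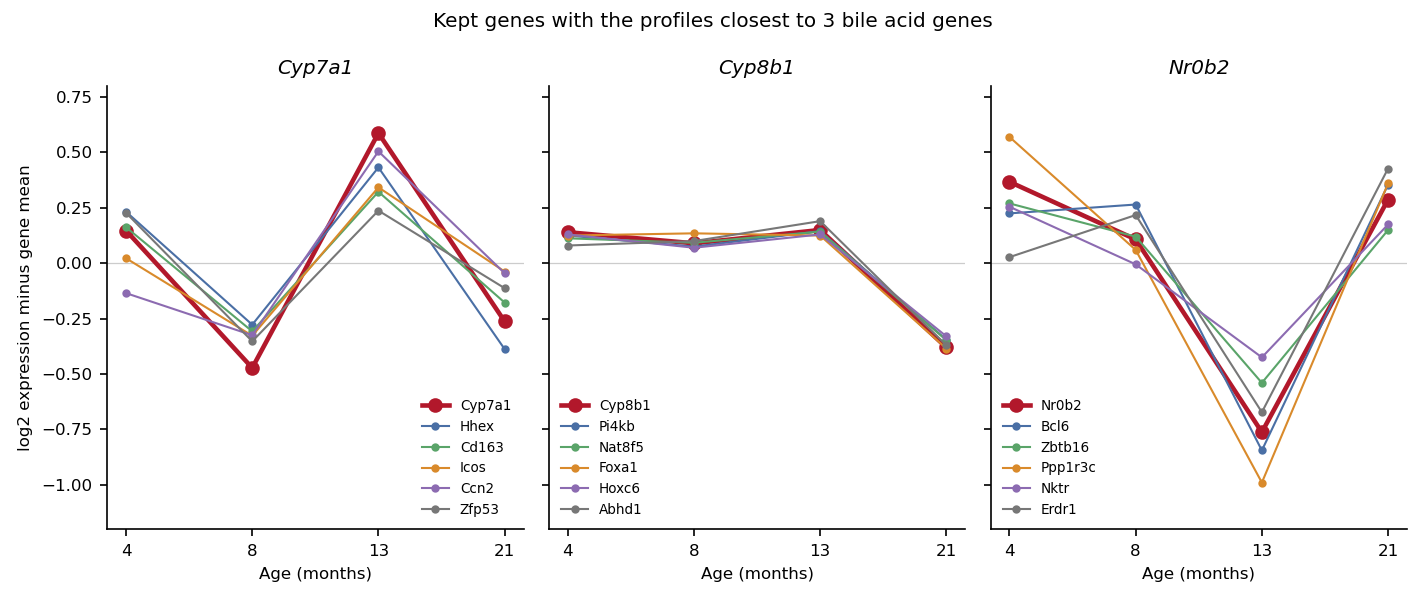
Lines give log2 expression minus the gene's own mean on the y axis against age in months (evenly spaced) on the x axis, for Cyp7a1, Cyp8b1 and Nr0b2 (thick red) and the 5 kept genes closest to each. Points are single arrays of pooled RNA without error bars. The genes beside Nr0b2 share its low 13-month value, as Bcl6 does at 5.93, and those beside Cyp8b1 its low 21-month value, as Foxa1 does at 7.37.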

How the data were processed

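Liver RNA was measured on 4 arrays, 1 per age, each of a pool of 6 mice. The deposited table gives 45101 probe sets on the log2 scale, between 1.22 and 13.7. Per the submitters' processing notes the authors made these log2 values with RMA, a method of background correction, normalization across arrays and probe summary, so a shift shared by most genes would be hidden and differences of dim probe sets are compressed. The sources used here do not give the RMA version, and no detection calls were used.

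After leaving out 64 control probe sets, 34945 were annotated to 1 gene symbol and 932 to several; the other 9160 were unnamed. All 211 probe sets of the listed genes matched a current gene by identifier, and 0 symbols changed. Groups were taken from the labelled age. Differences were computed for 6 pairs of ages without a test. A trend on age was not run. The members and lists were chosen with earlier results of these data known. Named genes are the 10 members, the nearest profiles and, of each other list, up to 4 genes with the largest 21 vs 4 months difference or genes at least 1.5-fold different in any comparison; others are named for their role and were chosen after their values were seen.

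The alternatives tried were cyclic loess, quantile normalization, median centring, averaging all probe sets of a gene, lines at a 25% difference and at 2-fold, the mean in place of the median, steps of at least 0.1, orders without the 8-month or 13-month array, and other filters. The mean over probe sets above the filter was added after the data were seen. The counting step was tested on simulated data. R 4.3.3 with limma 3.58.1 made the alternative normalizations, and Python 3.11.15 with pandas 2.3.3, numpy 2.4.6 and matplotlib 3.10.9 did the rest.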

Additional observations from a re-analysis of the deposited data

How the results depend on the processing

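With other summaries of probe sets and other normalizations, the 300 differences of single bile acid genes stayed within 1 SD of their main values. The 36 recomputed medians of the 10 genes did so too. The SD was that of the disagreement between 2 probe sets of a gene, 0.193 to 0.222 by comparison. Many of the differences are smaller than that, so a change of sign could still pass. At 21 vs 13 months Cyp27a1 ran from -0.1225 to 0.055, and the median of the 10 was -0.02, or 0.01 with median centring. The 24 shares of all genes past 1.5-fold, recomputed with no filter or a stricter filter on level, stayed within 1.5 times. Counts changed with the threshold. With the line at a 25% difference 1 gene was higher at 13 vs 4 months, 2 were higher at 13 vs 8, and 2 were lower at each of 21 vs 13, 21 vs 4 and 21 vs 8 months. At 2-fold 0 genes were lower at 8 vs 4, 13 vs 8 or 21 vs 13 months. The number of genes lower at every step was 1 with cyclic loess. That gene was Cyp27a1, whose 13 vs 8 months difference was 0.03 in the main values and -0.0116 with cyclic loess. Without the 8-month array 2 genes were higher and 2 lower at every step, and without the 13-month array 1 was higher and 2 lower. An order with fewer steps is easier to meet, and the share of all kept genes with such an order was not computed. These counts are therefore not a result about the 10 genes. Of the other lists, 8 of 396 recomputed medians moved, all in short marker lists. With no filter on level the neutrophil medians were -0.015 at 13 vs 4, -0.02 at 13 vs 8, 0.22 at 21 vs 13, 0.13 at 21 vs 4 and 0.10 at 21 vs 8 months, where more dim genes enter. The bile duct median was 0.02 at 21 vs 13 months with no filter and -0.161 at 21 vs 8 months with the mean over all probe sets, the cause of which was not tested, and the ileum median was -0.045 at 13 vs 8 months with no filter. No paired analysis was possible because each age has 1 array. Without replicates no array could be left out of a group.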
